A study of Mus musculus with 43 samples.

Results

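Transcripts of 10 enzymes of threonine, serine and folate one-carbon metabolism were followed through the reprogramming of mouse fibroblasts to induced pluripotent stem cells (iPSC). The enzymes are Tdh, Gcat, Gldc, Phgdh, Psat1, Shmt1, Shmt2, Mthfd1, Mthfd2 and Mthfd1l. They were taken by gene symbol from 5 tables of FPKM (fragments scaled to transcript length and to the mapped fragments of the library), and all 10 were found among the 38983 genes that the tables share. The set of enzymes was chosen with earlier results of these data known.

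The series holds 43 poly(A) RNA-seq libraries, with 1 library for each stage or treatment other than 1 group of 2 replicates. Secondary mouse embryonic fibroblasts (MEF), which carry a doxycycline-inducible cassette of the factors OKSM (Oct4, Klf4, Sox2 and Myc), were induced in serum and LIF at 5% oxygen. Mbd3f/- cells, with a floxed and a deleted allele of the NuRD subunit Mbd3, gave 11 libraries: MEF, days 1 to 8, an iPSC line and an embryonic stem cell (ES) line. Gatad2a-/- cells, which lack another NuRD subunit, gave 10 libraries with the same stages other than ES. WT-1 cells gave 7 libraries (MEF, days 2, 4, 6 and 8, iPSC and V6.5 ES), and WT-2 cells, isogenic to Gatad2a-/-, gave 6 without ES. The Mbd3f/- and Gatad2a-/- systems are called depleted below. Serum gave way to serum replacement with LIF and blockers of MEK and GSK3 signalling (2i) on day 3.5 per the design text, while the growth protocol adds the blockers 48 hours after induction. From day 3 the cells, like the iPSC and ES lines, grew on irradiated human fibroblasts, so time, medium and feeders change together. The labels do not say whether reads of these human cells were removed, so values from day 3 on and in the lines may include some.

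A separate table holds 9 libraries with altered Myc, all on the Mbd3f/- background. Libraries labelled as overexpressing OSK with cMyc, cMyc alone and OSK alone were taken on day 4, where OSK stands for Oct4, Sox2 and Klf4. OSK2nd cells are secondary MEF whose inducible cassette lacks Myc. They gave a library with siRNA against cMyc, lMyc and nMyc (siMyc) on each of days 3 and 7, a library with a Myc inhibitor on day 3, si-Scramble controls on day 7, and 2 si-Scramble MEF replicates. The inhibitor is not named in the labels.

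In the mouse, threonine dehydrogenase (Tdh) and glycine C-acetyltransferase (Gcat) break threonine down in mitochondria to glycine and acetyl-CoA, and mouse ES cells are known for their dependence on this route. Phgdh and Psat1 make serine from a glycolytic intermediate. Serine hydroxymethyltransferases move a carbon from serine to folate, in the cytosol (Shmt1) and in mitochondria (Shmt2), and the glycine cleavage system, with Gldc as its decarboxylase, takes a carbon from glycine. The MTHFD enzymes carry the folate-bound carbon through its oxidation states toward formate, which feeds purine and thymidylate synthesis.

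On the GRCm38 annotation, Tdh lies on chromosome 14 (63492347 to 63509092, minus strand), Gcat on chromosome 15 (79030874 to 79038353, plus strand), Gldc on chromosome 19 (30098447 to 30175429, minus strand), Phgdh on chromosome 3 (98313170 to 98339990, minus strand) and Psat1 on chromosome 19 (15904678 to 15947337, minus strand). Shmt1 lies on chromosome 11 (60788104 to 60811718, minus strand), Shmt2 on chromosome 10 (127517123 to 127522444, minus strand), Mthfd1 on chromosome 12 (76255298 to 76319803, plus strand), Mthfd2 on chromosome 6 (83305691 to 83325908, minus strand) and Mthfd1l on chromosome 10 (3973118 to 4167081, plus strand). FPKM counts reads over each gene's exons. Exons of Tdh, Shmt1, Shmt2 and Mthfd1 overlap a gene on the opposite strand (Gm17232, Smcr8, Ndufa4l2 and Gm47525 in that order), and those of Gcat overlap a second annotated Gcat gene. The sources used here do not name the strand setting, so reads of these pairs cannot be told apart.

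Because Myc was perturbed, the E-box CACGTG and its variant CACGCG, which Myc proteins are known to bind, were searched on both strands in RefSeq promoter windows (GRCm38.p6, 250 bases before to 50 after the start). Windows were at hand for 9 of the 10 genes, all but Tdh, with 2 windows for Psat1. CACGTG was found in Gcat, whose level is compared below across the Myc libraries, and CACGCG in Shmt1, Shmt2 and both Psat1 windows. Among 32851 promoter windows of the same length, 7.15% held CACGTG, 9.27% held CACGCG and 15.4% held either. The matches in these 4 genes, whose levels are set beside the Myc labels below, are shown 5′ to 3′ on the gene's strand, with the motif in capitals (CGCGTG is CACGCG read on the other strand).
Gcat, chr15:79030864-79030893, plus strand: ccctgcccacgtCACGTGacggggagcact
Shmt1, chr11:60811339-60811368, minus strand: gcgggcgaatcgCGCGTGggcagctggggg
Shmt2, chr10:127522395-127522418, minus strand: aattttctcgcgCACGCGttctaa
Psat1, first window, chr19:15925190-15925219, minus strand: aaggcacctcgcCACGCGggtggctggtgc
Psat1, second window, chr19:15924651-15924680, minus strand: ctctgcggctccCGCGTGcacaggcgagcg
The Gcat match begins 2 bases after the start, the Shmt1 match 91 bases before it (offset -91) and the Shmt2 match 38 bases after it. The Psat1 matches lie at offsets -148 and -46 from the start of their own window's transcript. A match is a description of these letters only. No window held TGATGNAA, the core of the amino acid response element, which 3.97% of all windows held.

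The depth of the libraries is unknown, since FPKM keeps no count. Genes at an FPKM of at least 1 numbered 12266 to 13983 in the Mbd3f/-, WT-1 and WT-2 tables, 13687 to 15117 in the Myc table and 15485 to 16896 in the Gatad2a-/- table. Summed FPKM reached 10044670 in the Gatad2a-/- day 6 library, against 573675 to 707073 in the Mbd3f/- libraries. The 10 highest genes of a library took 48.81 to 90.65% of summed FPKM in Gatad2a-/-, against 5.05 to 7.18% in Mbd3f/-. The limma tests took in libraries of several tables, but with a term for each system, so that each tested value rests on differences within a table. Levels from different tables are set side by side only as values. Mbd3 stood at 43.1 FPKM in Mbd3f/- iPSC, against 101 and 135 FPKM in WT-1 and WT-2 iPSC. Gatad2a stood at 13.4 FPKM in Gatad2a-/- iPSC, against 29.9 and 38.5 FPKM in WT-1 and WT-2 iPSC, but at 10.2 FPKM in Gatad2a-/- MEF, against 12.9 and 10.5 FPKM in WT-1 and WT-2 MEF. The labels do not say which part of Gatad2a was removed, and transcript from a disrupted allele can still be counted. Pluripotency markers (10 genes) summed to 2770 to 4910 FPKM in the 4 iPSC lines, against 7.25 to 44.1 FPKM in MEF, and fibroblast markers (10 genes) to 20.3 to 138 FPKM in iPSC, against 5184 to 8971 FPKM in MEF. Macrophage markers (6 genes) summed to 4187 to 8259 FPKM in WT-2 MEF and days, 1168 in Mbd3f/- MEF, 205 in Gatad2a-/- MEF and 8.76 in WT-1 MEF. Their part in the results below was not tested. In such bulk samples fewer cells of a type and less RNA per cell cannot be told apart.

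Established iPSC differed from MEF in 9 of the 10 enzymes, all higher in iPSC. Changes are differences in log2(FPKM + 1), tested with limma across all genes and called at a Benjamini-Hochberg adjusted p under 0.05. On that rule 29.0% of 20305 genes were higher and 23.9% lower in iPSC, and the members' median change was 2.48, beside 0.139 over all genes. Tdh had the largest log2 change of the 10, and Phgdh missed the threshold.

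For threonine breakdown, Tdh stood at 259.8, 134, 281 and 265 FPKM in Mbd3f/-, Gatad2a-/-, WT-1 and WT-2 iPSC, against 0.0655, 0.0203, 0.241 and 0 FPKM in the MEF of the same systems. Every iPSC line was far above every MEF, and Tdh was the highest of the 10 in mean iPSC level (235 ± 67.8 FPKM, SD, n = 4 systems). Its log2 change was 7.72 ± 0.84 (SE; limma, adjusted p = 6.69e-06), which takes the 0 listed for WT-2 MEF as 0. Gcat, the next enzyme of the route, stood at 31.3, 17.7, 27.0 and 65.0 FPKM in iPSC, against 2.21, 2.32, 7.77 and 1.03 FPKM in MEF in the same order of systems. The groups did not overlap, and the log2 change was 3.13 ± 0.48 (limma, adjusted p = 0.000118).

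Gldc, the glycine-cleaving decarboxylase, stood at 15.7, 20.3, 15.4 and 14.6 FPKM in Mbd3f/-, Gatad2a-/-, WT-1 and WT-2 iPSC, against 1.08, 0.284, 0.203 and 0.0826 FPKM in their MEF. These iPSC lines lay close together, and all were above all MEF. The log2 change was 3.67 ± 0.25 (limma, adjusted p = 1.35e-07). The ES lines held more Gldc, 35.2 FPKM in Mbd3f/- ES and 43 FPKM in WT-1 ES.

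The serine synthesis genes varied most between the MEF libraries. Phgdh stood at 40.5, 93.4, 35.2 and 58.1 FPKM in Mbd3f/-, Gatad2a-/-, WT-1 and WT-2 iPSC, against 20.1, 108, 60.2 and 3.43 FPKM in their MEF. The groups overlapped, with iPSC higher in 2 systems and lower in the other 2, and the log2 change of 0.94 ± 0.52 did not pass (limma, adjusted p = 0.147). Psat1 stood at 176, 131, 269.8 and 269 FPKM in iPSC, against 57.2, 127, 199 and 10.5 FPKM in MEF. Its groups overlapped as well, because WT-1 MEF exceeded 2 of the iPSC lines, and the log2 change was 1.66 ± 0.49 (limma, adjusted p = 0.0116).

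The fitted changes of the cytosolic enzymes were above those of their mitochondrial paralogues. Shmt1 had 77.0, 73.2, 99.4 and 76.3 FPKM in iPSC of the 4 systems, against 3.06, 7.16, 4.80 and 0.770 FPKM in MEF, a log2 change of 4.25 ± 0.50 (limma, adjusted p = 1.33e-05). Mitochondrial Shmt2 had 161, 116, 164 and 245 FPKM in iPSC, against 31.1, 58.0, 66.3 and 27.2 FPKM in MEF, a log2 change of 1.94 ± 0.34 (limma, adjusted p = 0.000293). In both genes all iPSC lines were above all MEF. Cytosolic Mthfd1 had 107, 117, 85.5 and 95.3 FPKM in iPSC, against 8.51, 16.4, 15.2 and 8.23 FPKM in MEF, a log2 change of 3.02 ± 0.41 (limma, adjusted p = 4.63e-05).

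Mitochondrial Mthfd2 had 104, 63.7, 143 and 120.3 FPKM in iPSC, against 30.8, 50.6, 65.9 and 24.7 FPKM in MEF. Its groups overlapped by the Gatad2a-/- iPSC and WT-1 MEF libraries, and the log2 change was 1.35 ± 0.30 (limma, adjusted p = 0.00213). Mthfd1l, the mitochondrial enzyme that releases formate, had 42.3, 49.3, 38.5 and 43 FPKM in iPSC, against 10.8, 17.6, 19.2 and 18.4 FPKM in MEF. Those groups stood apart, with a log2 change of 1.36 ± 0.34 (limma, adjusted p = 0.00399). Called counts were 7 without Mbd3f/- (Mthfd1l and Psat1 missed) and 7 without WT-2 (Mthfd2 and Psat1 missed), and all 10 without WT-1, Phgdh included. Proliferation markers rose beside the enzymes in iPSC (10 of 10 called, summed FPKM 1157 to 1828 in iPSC, against 58.9 to 309 in MEF). Their part in the result was not tested.

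In order of mean FPKM the iPSC lines ran Tdh, Psat1 (211 ± 69.4), Shmt2 (172 ± 53.8), Mthfd2 (108 ± 33.3), Mthfd1 (101 ± 13.7), Shmt1 (81.5 ± 12.1), Phgdh (56.8 ± 26.3), Mthfd1l (43.3 ± 4.46), Gcat (35.2 ± 20.6) and Gldc (16.5 ± 2.57), each with its SD over n = 4 systems. The ranges of every neighbouring pair in this order overlapped. In MEF, Psat1 led at 98.4 ± 82.4 FPKM and Tdh was last at 0.0817 ± 0.110 FPKM.

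**Figure D1:**
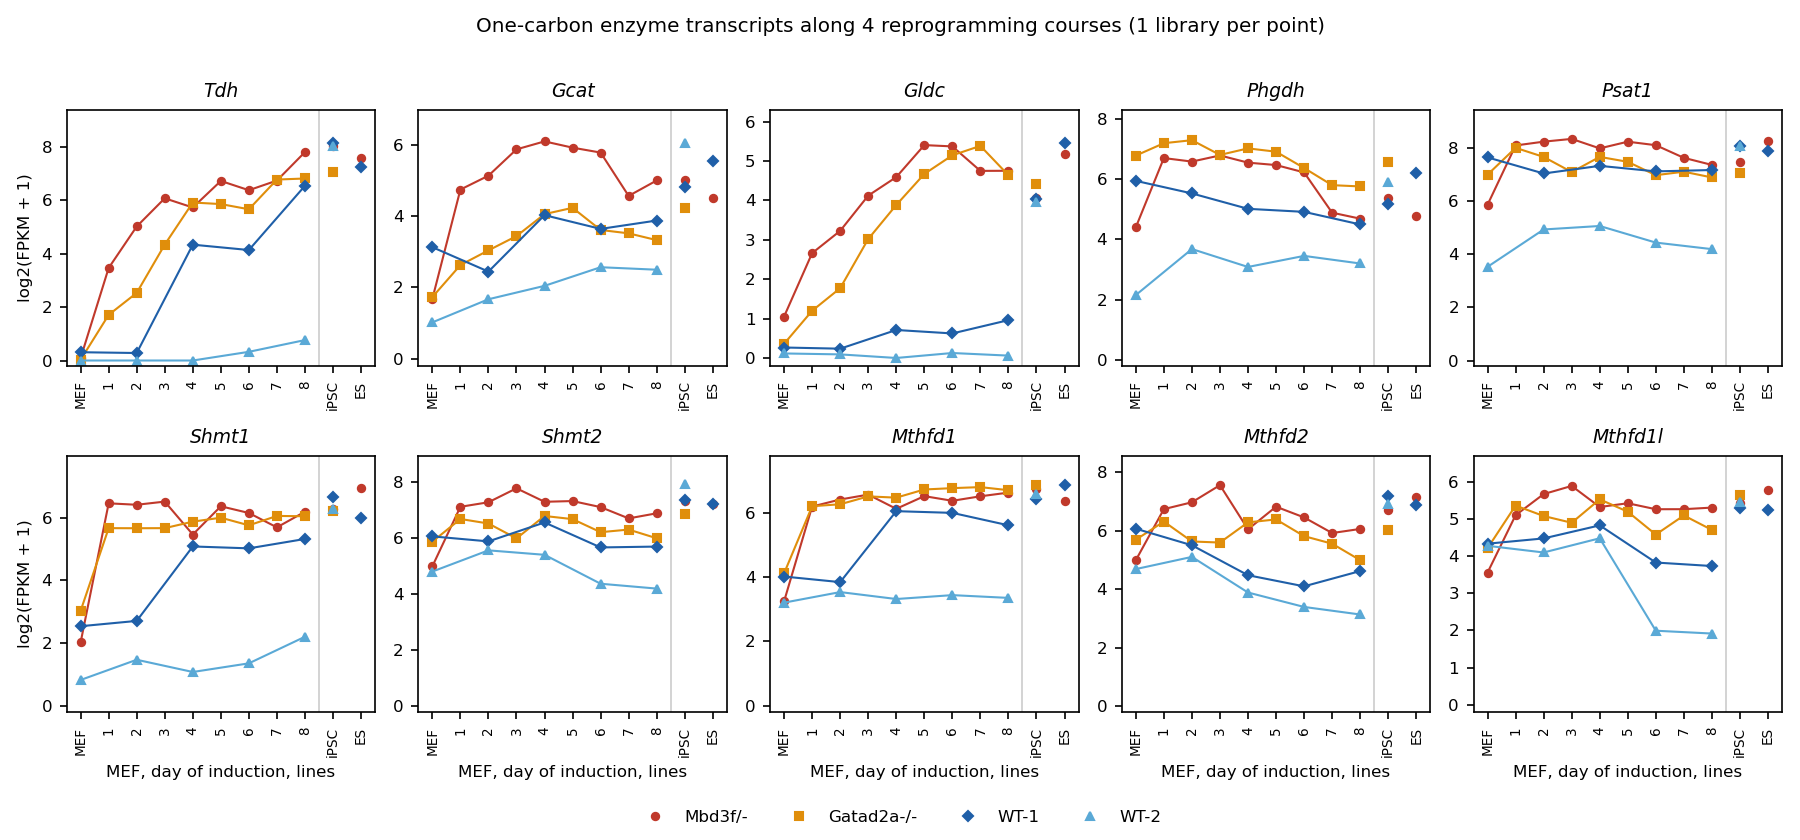
Level of each transcript as log2(FPKM + 1) (vertical axis) in MEF, on each sampled day of induction and in the iPSC and ES lines (horizontal axis), 1 library per point, with lines joining the days of each system. Tdh reached 224 FPKM on day 8 in Mbd3f/- and 0.701 FPKM on day 8 in WT-2, and Gldc stayed under 1 FPKM on all WT days.

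Over the 8 days of the depleted courses, most of the enzymes were higher on day 1 already. Of the 10, 8 rose on day 1 relative to MEF, when 14.1% of 20198 genes rose and 9.0% fell, and the members' median log2 change was 1.54, beside 0.033 over all genes. On day 2, 9 rose (14.3% of genes rose), on day 4, 8 (16.8%), and on day 8, 6 (21.2%). None fell on these days by limma, when 10.3%, 16.7% and 16.2% of genes fell on days 2, 4 and 8, and the only negative change among the members was that of Phgdh on day 8. Of 10 pluripotency markers, 0 rose on days 1 and 2 (1 fell on each), 6 rose on day 4 and 10 on day 8. On day 1, 9 of 10 proliferation markers and 14 of 15 Myc-responsive genes (of ribosome biogenesis, with Odc1, Srm, Cad, Ldha and Tfrc) rose, and 8 of 10 fibroblast markers fell. The part of these in the enzymes' rise was not tested.

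The calls rest on the 2 depleted systems together. With either left out, the lone library of each stage was assumed to vary like the WT systems. Gldc did not exceed 0.947 FPKM on any WT day, where log2(FPKM + 1) leaves little spread. These fits therefore favour a call of Gldc over the other members. Without Mbd3f/-, the counts were 0, 1, 1 and 1 on days 1, 2, 4 and 8 (Gldc alone), and without Gatad2a-/- they were 1, 2, 2 and 3.

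Tdh ended both depleted courses at its highest level, though not every day was above the one before. In Mbd3f/- it had 0.0655 FPKM in MEF and 10.1, 31.5, 66.7, 52.3, 105, 82.4, 106 and 224 FPKM on days 1 to 8. In Gatad2a-/- it had 0.0203 FPKM in MEF and 2.27, 4.80, 19.3, 59.6, 57.2, 49.9, 109 and 112 FPKM on days 1 to 8. Day 8 was still under the iPSC line of each system. The log2 change from MEF was 2.53 ± 0.55 on day 1 (limma, adjusted p = 0.00633) and 7.26 ± 0.55 on day 8 (limma, adjusted p = 2.17e-06).

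Gcat, which acts on the product of Tdh, peaked in mid-course. In Mbd3f/- it had 2.21 FPKM in MEF and 25.9, 34.2, 57.8, 67.7, 59.8, 54.3, 22.8 and 31.1 FPKM on days 1 to 8. In Gatad2a-/- it had 2.32 FPKM in MEF and 5.19, 7.24, 9.88, 15.7, 17.9, 11.3, 10.5 and 9.06 FPKM on those days. Its peaks fell on days 4 and 5. Listed FPKM was higher in Mbd3f/- than in Gatad2a-/- on every day, but the 2 tables differ in scale as described above. No difference between the systems is drawn from these levels. The log2 change of Gcat was 1.98 ± 0.49 on day 1 (limma, adjusted p = 0.013) and 3.38 ± 0.49 on day 4 (limma, adjusted p = 0.000275).

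Gldc climbed to day 5 or 7 and overshot the iPSC level. In Mbd3f/- it had 1.08 FPKM in MEF and 5.33, 8.37, 16.4, 23.2, 41.4, 40.5, 25.9 and 26.0 FPKM on days 1 to 8, and 15.7 FPKM in iPSC. In Gatad2a-/- it had 0.284 FPKM in MEF and 1.30, 2.42, 7.11, 13.8, 24.5, 34.5, 40.9 and 24.0 FPKM on days 1 to 8, and 20.3 FPKM in iPSC. Its highest days, 5 and 7, exceeded the iPSC line of their system, with iPSC minus that day at -1.35 and -0.98 on the log2 scale. The change from MEF did not pass on day 1 (1.22 ± 0.46, limma adjusted p = 0.0761) and passed from day 2 (1.79 ± 0.46, limma adjusted p = 0.0136). Under quantile normalization it did not pass on day 2.

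Shmt1 and Mthfd1 stepped up within 1 day and then held. Shmt1 had 86.7 and 49.7 FPKM on day 1 in Mbd3f/- and Gatad2a-/-, against 3.06 and 7.16 FPKM in MEF, and kept to 43 to 90.1 and 49.6 to 65.3 FPKM over the 8 days. Mthfd1 had 72.5 and 73.0 FPKM on day 1, against 8.51 and 16.4 FPKM in MEF, and kept to 69.0 to 98.2 and 73.0 to 111 FPKM. Their day 1 log2 changes were 3.53 ± 0.39 for Shmt1 (limma, adjusted p = 0.000169) and 2.52 ± 0.21 for Mthfd1 (limma, adjusted p = 5.22e-05).

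Shmt2, Mthfd2 and Mthfd1l had their highest days early in Mbd3f/-. Their log2 differences from MEF were smaller in Gatad2a-/- (not tested between the systems). Shmt2 had 139 and 103 FPKM on day 1 in Mbd3f/- and Gatad2a-/-, against 31.1 and 58.0 FPKM in MEF, with a log2 change of 1.47 ± 0.42 (limma, adjusted p = 0.0249). By day 8 it had 118 and 63.2 FPKM, and the change from MEF no longer passed (1.01 ± 0.42, limma adjusted p = 0.0791). Mthfd2 reached 187 FPKM on day 3 in Mbd3f/-, against 30.8 FPKM in MEF, and 82.4 FPKM on day 5 in Gatad2a-/-, against 50.6 FPKM in MEF. It passed on none of days 1, 2, 4 and 8, with log2 changes of 1.18 ± 0.48 on day 1 (limma, adjusted p = 0.0997) and 0.19 ± 0.48 on day 8 (limma, adjusted p = 0.795). Mthfd1l passed on all of these days, from 1.35 ± 0.34 on day 1 (limma, adjusted p = 0.0147) to 1.12 ± 0.34 on day 8 (limma, adjusted p = 0.0221).

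Of the serine synthesis genes, Phgdh was high early and low late. Phgdh in Mbd3f/- had 20.1 FPKM in MEF and 102, 94.4, 109, 92.0, 87.0, 73.4, 28.4 and 24.7 FPKM on days 1 to 8. In Gatad2a-/- it had 108 FPKM in MEF and 145, 155, 110.1, 128, 119, 81.2, 54.4 and 52.9 FPKM on days 1 to 8. Days 7 and 8 were the lowest days in both. The log2 change from MEF was 1.35 ± 0.43 on day 1 (limma, adjusted p = 0.0396), missed narrowly on day 4 (1.19 ± 0.43, limma adjusted p = 0.0501) and was -0.37 ± 0.43 on day 8 (limma, adjusted p = 0.526). Between day 8 and day 4, a comparison added after the values were seen, Phgdh was the only member called, lower by a log2 change of -1.56 ± 0.43 (limma, adjusted p = 0.032), when 4.48% of genes fell and 9.23% rose. That call was lost without the filter on low values (adjusted p = 0.054), without the block for system (0.318) and with either system left out (0.683 and 0.405, all by limma).

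Psat1 had 272 and 256 FPKM on day 1 in Mbd3f/- and Gatad2a-/-, against 57.2 and 127 FPKM in MEF, and 164 and 118 FPKM on day 8. It passed on day 1 (1.62 ± 0.42, limma adjusted p = 0.0149) and not on day 8 (0.70 ± 0.42, limma adjusted p = 0.21). Between iPSC and day 8 in the depleted systems no member was called (0.153% of genes were higher and 0.193% lower in iPSC by limma), and the number of members at an unadjusted p under 0.05 was 0.

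**Figure D2:**
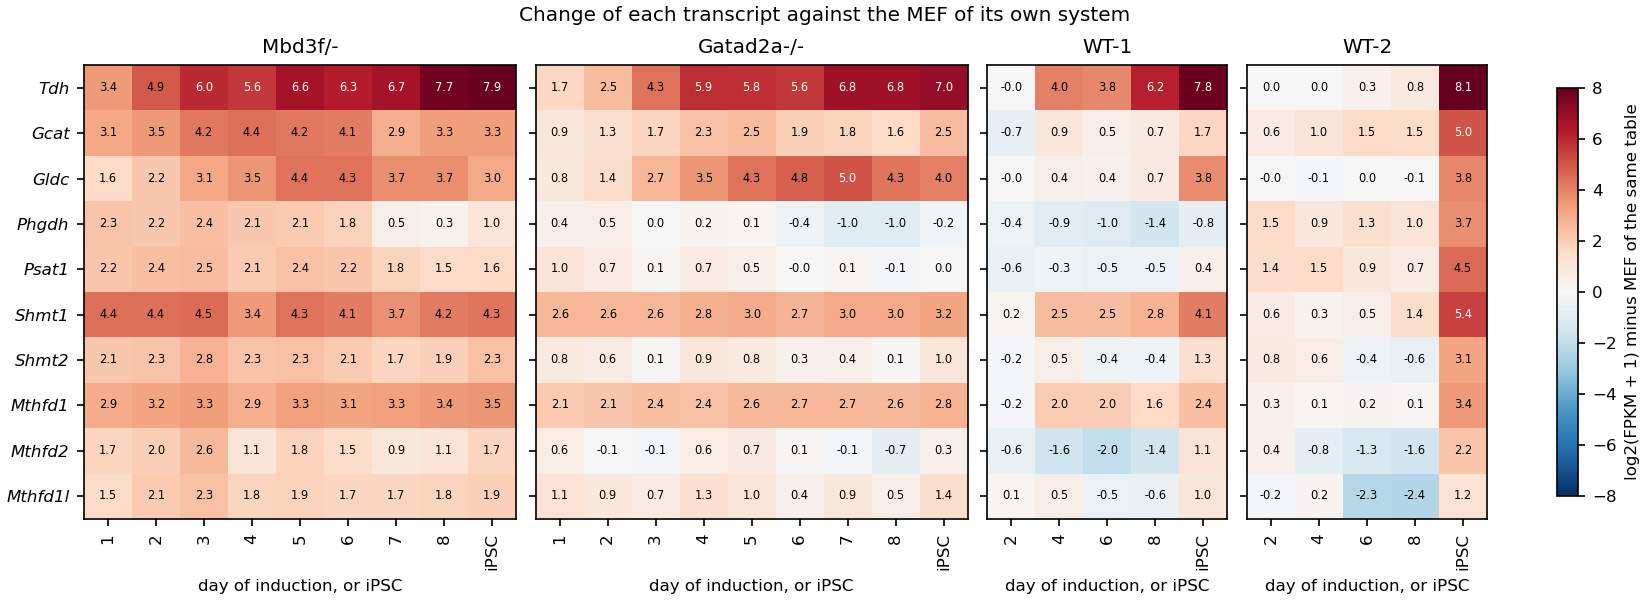
Difference in log2(FPKM + 1) between each day or iPSC library and the MEF of the same table (printed in each cell and coloured red for higher, blue for lower), with members down the page and days across, for the depleted systems (left panels) and the WT systems (right panels). Shmt1 in Mbd3f/- is already 4.4 above MEF on day 1, whereas in WT-2 all days of Tdh, Gldc and Mthfd1 are within 1 of MEF.

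The WT courses differed from each other. In WT-1, Tdh had 0.241 FPKM in MEF and 0.215, 19.3, 16.6 and 92.6 FPKM on days 2, 4, 6 and 8, and in WT-2 it was listed at 0 in MEF and on days 2 and 4, with 0.254 and 0.701 FPKM on days 6 and 8. Shmt1 had 4.80 FPKM in WT-1 MEF and 5.53, 32.8, 31.4 and 38.9 FPKM on the same days, and 0.770, 1.77, 1.11, 1.56 and 3.60 FPKM in WT-2 MEF and days. Mthfd1 had 15.2, 13.4, 65.5, 63.1 and 48.0 FPKM in WT-1 MEF and days, and 8.23, 10.6, 8.99, 9.86 and 9.23 FPKM in those of WT-2. These 3 genes stepped up between days 2 and 4 in WT-1. In WT-2, Tdh and Mthfd1 stayed near their MEF level, and Shmt1 was highest on day 8 but under every WT-1 value.

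Gldc did not exceed 0.947 FPKM on any WT day, and the WT-2 course never exceeded 0.0909 FPKM, although both WT iPSC lines held 15.4 and 14.6 FPKM. Mthfd2 had 65.9 FPKM in WT-1 MEF and 44.2, 21.2, 16.1 and 23.6 FPKM on days 2, 4, 6 and 8, and 24.7 FPKM in WT-2 MEF and 33.3, 13.8, 9.50 and 7.78 FPKM on those days. Both courses were lower on days 4 to 8 than in MEF. On day 8 relative to MEF no member was called in WT by limma, although 4 had an unadjusted p under 0.05, and 0.438% of genes rose and 0.719% fell. Tdh had a change of 3.50 ± 1.18 (limma, adjusted p = 0.176), Mthfd2 of -1.50 ± 0.43 (limma, adjusted p = 0.114) and Mthfd1l of -1.48 ± 0.48 (limma, adjusted p = 0.156). With WT-1 as the only WT system, where its single day 8 and MEF libraries were assumed to vary like the other systems, Tdh (6.24) and Shmt1 (2.78) passed.

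Between iPSC and WT day 8, 9 of 10 were called, all higher in iPSC (19.6% of genes were higher and 15.7% lower), with a median log2 change of 2.63, beside 0 over all genes. Gldc differed by 3.49 ± 0.36 (limma, adjusted p = 1.35e-05) and Mthfd2 by 3.17 ± 0.43 (limma, adjusted p = 0.000122), while Phgdh missed (1.69 ± 0.73, limma adjusted p = 0.0905). The count was 2 without WT-2 (Gldc and Mthfd2), 10 without WT-1, 4 without Mbd3f/- and 4 without the block for system. In WT-1, fibroblast markers summed to 5375, 2290, 3560 and 4236 FPKM on days 2, 4, 6 and 8, against 5184 in MEF. Proliferation markers in WT-1 summed to 157, 579, 352 and 433 FPKM on those days, against 164 in MEF. In WT-2, fibroblast markers summed to 6936, 9237, 7703 and 8025 FPKM, against 6971 in MEF. Proliferation markers in WT-2 summed to 105, 227, 72.4 and 46.4 FPKM, against 58.9 in MEF. Pluripotency markers in WT-1 summed to 16.8 and 151 FPKM on days 6 and 8, against 7.39 in MEF. In WT-2 they did not exceed 60.8 FPKM on any day, against 44.1 in MEF, and were under the MEF value from day 4 on. Of these 10 markers, 0 were called on WT day 8 relative to MEF by limma. The part of these marker sets in the enzymes' values was not tested.

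The difference between depleted and WT systems in the change from MEF was tested directly. For the change to day 4, 1 member was called, Gldc, larger in the depleted systems by 3.37 ± 0.51 on the log2 scale (limma, adjusted p = 0.00249), when 1.12% of genes were called higher and 5.33% lower. For the change to day 8, 2 were called, Gldc at 3.67 ± 0.51 (limma, adjusted p = 0.000495) and Mthfd1l at 2.60 ± 0.68 (limma, adjusted p = 0.0196), when 8.4% of genes were called higher and 7.73% lower. Members' medians were 1.64 and 1.60 for the 2 days, beside 0.03 and 0.235 over all genes. Tdh differed by 3.75 ± 1.67 on both days and did not pass (limma, adjusted p = 0.217 and 0.149). Its estimate was thus above that of Gldc on both days, with a larger SE. Gldc had the smallest SE of the members. Gldc did not exceed 0.947 FPKM on any WT day, where log2(FPKM + 1) leaves little spread. The part of this in its SE and calls was not tested, so the calls do not rank Gldc above Tdh. On day 8 Tdh had 224 and 112 FPKM in Mbd3f/- and Gatad2a-/-, against 92.6 and 0.701 FPKM in WT-1 and WT-2.

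Gldc on day 4 had 23.2 and 13.8 FPKM in Mbd3f/- and Gatad2a-/-, against 0.637 and 0 FPKM in WT-1 and WT-2. On day 8 it had 26.0 and 24.0 FPKM in the depleted systems, against 0.947 and 0.0422 FPKM in the WT systems, with no overlap on either day. Its day 4 call was lost without WT-2 (3.09, limma adjusted p = 0.0864), and its day 8 call passed with any 1 system left out (3.30 to 4.05, limma adjusted p = 0.00108 to 0.0366). Mthfd1l on day 8 had 38.7 and 25.2 FPKM in the depleted systems, against 12.3 and 2.78 FPKM in the WT systems. Its call was lost without Mbd3f/- (1.98, limma adjusted p = 0.24), without Gatad2a-/- (3.24, limma adjusted p = 0.0657), without WT-2 (1.72, limma adjusted p = 0.161) and without the block (limma, adjusted p = 0.103). Counts without WT-1 were 3 on day 4 (Tdh, Gldc and Mthfd1) and 4 on day 8 (with Mthfd1l), 0 on day 4 without WT-2, and 1 on day 8 without Mbd3f/- or WT-2. For the same differences 3 pluripotency markers were called higher and 8 fibroblast markers lower on day 4, and all 10 of each on day 8. Their part in the members' differences was not tested.

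The order of onset was described by the day on which a gene had covered a share of 0.5 of its own log2 distance from MEF to iPSC and kept it to day 8, for genes whose distance was at least 1 in that table. In Mbd3f/-, all 9 genes that could be scaled had done so by day 2, with Tdh on day 2 and the other 8 on day 1. In Gatad2a-/-, where 6 could be scaled, Shmt1 and Mthfd1 came on day 1, Gcat on day 2, and Tdh and Gldc on day 3, while Mthfd1l did not by day 8. In WT-1, where 7 could be scaled, Shmt1 and Mthfd1 came on day 4 and Tdh on day 8, and the other 4 did not. In WT-2, 0 of 10 did by day 8. Shmt1 and Mthfd1 were thus first or tied for first in the 3 systems where any gene came. Phgdh could be scaled in WT-2 only. The place of Tdh depended on the pseudocount: with 0.1 in place of 1 it came on day 1 in Mbd3f/-, day 2 in Gatad2a-/- and day 4 in WT-1, tied with Shmt1 and Mthfd1 in Mbd3f/- and WT-1.

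Scaled courses of 450 genes, Tdh among them, were compared with that of Tdh by root mean square difference. The 24 libraries used were the days of the 4 systems. The 450 genes were higher in iPSC than in MEF by at least 2 on the log2 scale in every system. Predicted genes, pseudogenes and clone names were counted and ranked but not named. Of the others, the most like Tdh were Grtp1 (0.111), Chchd10 (0.115), Dyrk3 (0.133), Dtymk (0.134) and Gsta4 (0.143). Of the enzymes, Mthfd1 ranked 74 (0.217), Shmt1 115 (0.243) and Gldc 190 (0.311). Dtymk makes the diphosphate of thymidine.

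The ratio of the mitochondrial to the cytosolic paralogue was lower in iPSC than in MEF, though not on every day. In WT-2 the log2 ratio of Shmt2 to Shmt1 was 4.11 and 4.34 on days 2 and 4, against 3.99 in MEF. The log2 ratio of Shmt2 to Shmt1, each as FPKM + 1, was 1.02 ± 0.46 in iPSC, against 3.34 ± 0.52 in MEF (SD, n = 4 systems). The ratio of Mthfd2 to Mthfd1 was 0.04 ± 0.68 in iPSC, against 1.71 ± 0.25 in MEF. No iPSC line overlapped the MEF in either pair. On day 8 the Shmt pair stood at 0.71, -0.04, 0.39 and 2.01 in Mbd3f/-, Gatad2a-/-, WT-1 and WT-2, and the Mthfd pair at -0.58, -1.72, -1.0 and -0.22 in the same order. On day 8 the WT-2 course thus shared the lower Mthfd ratio, where Mthfd2 was low and Mthfd1 near its MEF level.

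**Figure D3:**
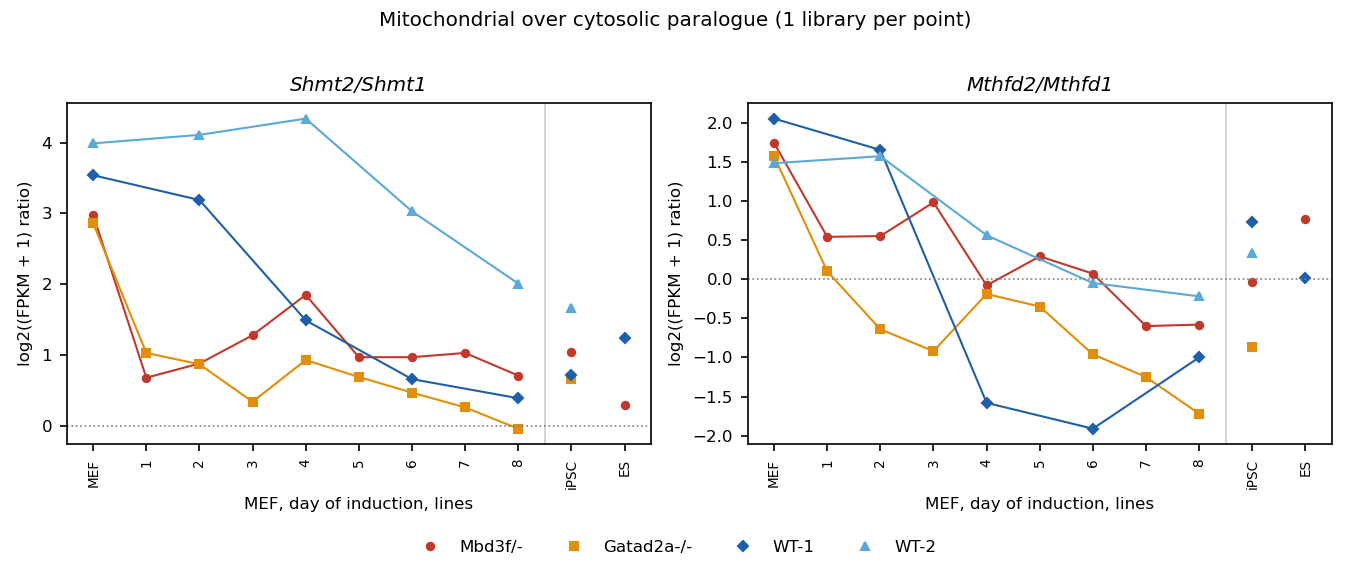
Log2 ratio of the mitochondrial to the cytosolic paralogue, each as FPKM + 1 (vertical axis), for Shmt2 over Shmt1 (left) and Mthfd2 over Mthfd1 (right), by stage (horizontal axis), 1 library per point. The Shmt ratio on day 1 is 0.68 in Mbd3f/- and 1.03 in Gatad2a-/-, beside an iPSC mean of 1.02, and in WT-2 it is still 2.01 on day 8.

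Other genes of the pathway, a list of 45 of which 42 could be tested, moved in both directions. Between iPSC and MEF, 22 were higher and 6 lower in iPSC, with a median log2 change of 0.95, beside 29.0% of all genes higher, 23.9% lower and a median of 0.139. The largest rises were Folr1, a folate receptor (5.26 ± 0.49, limma adjusted p = 1.81e-06), Amt, the aminomethyltransferase of glycine cleavage (4.18 ± 0.40, limma adjusted p = 1.98e-06), Cth (4.05 ± 0.68) and Cbs (3.41 ± 0.40) of transsulfuration, and Ppat (2.93 ± 0.34), the entry enzyme of purine synthesis. The largest falls were the serine transporter gene family member Sfxn3 (-2.85 ± 0.26, limma adjusted p = 1.63e-06), the mitochondrial formyl-folate dehydrogenase Aldh1l2 (-2.30 ± 0.45), the serine racemase Srr (-1.93 ± 0.29), Ahcyl1 (-1.39 ± 0.22) and Mthfd2l (-1.23 ± 0.20).

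On day 1 of the depleted courses, 21 of the 42 rose and 3 fell, and on days 2, 4 and 8 the counts were 20 and 2, 21 and 3, and 18 and 6. Over all genes 14.1%, 14.3%, 16.8% and 21.2% rose and 9.0%, 10.3%, 16.7% and 16.2% fell on these days. Of 8 purine synthesis genes, 7 rose on each of days 1, 2 and 4, and on day 8, 6 rose and 1 fell. On day 1, 8 of 16 folate carriers and other folate enzymes rose and 3 fell, and 2 of 8 genes of serine synthesis and transport, 2 of 3 of glycine cleavage and 2 of 7 of the methionine cycle rose. On day 1 the largest rises were Ppat (2.91 ± 0.17, limma adjusted p = 1.13e-05), Cth (2.74 ± 0.44), Gart of purine synthesis (2.52 ± 0.35), the methionine synthase Mtr (2.5 ± 0.24) and Adsl of purine synthesis (2.47 ± 0.32). Among the falls on day 1 were Aldh1l2 (-1.66 ± 0.54, limma adjusted p = 0.0426) and Folr1 (-1.53 ± 0.49, limma adjusted p = 0.0404), and Folr1 was higher by 3.31 ± 0.49 on day 8. On days 2 and 4 Cth led the rises (3.60 ± 0.44 and 3.95 ± 0.44) and Aldh1l2 fell (-1.63 ± 0.54 and -2.64 ± 0.54).

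On day 8 of the depleted courses the largest rises were Amt (3.87 ± 0.38, limma adjusted p = 1.12e-05), Cth (3.48 ± 0.44), Cbs (3.35 ± 0.48), Folr1 and Ppat (2.65 ± 0.17). Among the falls were Aldh1l2 (-2.59 ± 0.54), the glycine transporter Slc6a9 (-2.20 ± 0.46), Sfxn3 (-1.35 ± 0.37) and Impdh1 (-1.12 ± 0.29). In WT on day 8, Aldh1l2 was the only 1 of the 42 called, lower than in MEF (-3.05 ± 0.64, limma adjusted p = 0.0409). Between iPSC and WT day 8, 20 were higher and 5 lower, with Folr1 (4.84 ± 0.69), Amt (4.27 ± 0.56) and the serine phosphatase Psph (2.59 ± 0.51) among the higher and Sfxn3 (-3.56 ± 0.37) the lowest. For the change to day 8, 5 pathway genes were called larger in the depleted than in the WT systems, namely Amt (3.77 ± 0.79, limma adjusted p = 0.00682), Ppat (2.79 ± 0.67), Paics (2.01 ± 0.57), Pfas (2.01 ± 0.59) and Mtr (1.61 ± 0.47), and 0 were called smaller, when 8.4% of all genes were called higher and 7.73% lower. Of 13 measured genes of the amino acid response around Atf4, 1 rose and 2 fell on day 1 (14.1% and 9.0% of all genes), while 7 were higher and 3 lower in iPSC than in MEF (29.0% and 23.9%).

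In the Myc table each group is 1 library, apart from the 2 si-Scramble MEF, so no test was made. A log2 difference of at least 1 is called past the fold, and 2.28% of 16436 genes passed it between the 2 si-Scramble MEF replicates. The members differed by -0.38 (Shmt1) to 0.18 between these replicates, with a sign that depends only on their order. The Myc genes were checked first. Myc had 3.16, 0.510 and 24.8 FPKM on day 4 in the libraries labelled OSK + cMyc, cMyc and OSK. It had 29.2 FPKM in the library labelled siMyc day 3 and 29.4 FPKM with the inhibitor on day 3, against 30.5 and 26.5 FPKM in si-Scramble MEF. On day 7 it had 11 FPKM in the library labelled siMyc, against 16.2 FPKM in si-Scramble.

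The Myc row thus did not follow the labels of overexpression, nor that of siMyc on day 3. In the Mbd3f/- course, whose cassette includes Myc, the same row stood at 0.0919 FPKM on day 4, against 13.0 FPKM in MEF, and whether it counts transgene reads was not tested. Mycn had 0.927 FPKM in the library labelled siMyc day 7, against 1.47 FPKM in si-Scramble day 7, and Mycl 3.31 FPKM, against 1.03 FPKM. Sox2, a factor of the cassettes, had 312 FPKM in the library labelled OSK + cMyc, 39.6 FPKM in that labelled OSK and 0.821 FPKM in that labelled cMyc. Directions below are therefore those of the libraries as labelled.

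On day 4 the enzymes split by which library was high. Tdh had 11.6, 0.0245 and 25.0 FPKM in the libraries labelled OSK + cMyc, cMyc and OSK, so it was near 0 in the only one without OSK. Gldc had 6.57, 1.27 and 1.82 FPKM in the same order, highest where both were named. Shmt1 had 100.4, 155 and 31.0 FPKM, lowest in the OSK library. Pluripotency markers summed to 12.5, 7.15 and 65.1 FPKM in the libraries labelled OSK + cMyc, cMyc and OSK. Proliferation markers summed to 543, 778 and 964 FPKM in the same order. The part of these markers in the split was not tested.

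Gcat had 32.2, 36.8 and 12.5 FPKM in the libraries labelled OSK + cMyc, cMyc and OSK, and Mthfd1 68.7, 93.6 and 33.1 FPKM. As for Shmt1, both libraries with cMyc in the label were above the OSK library. Mthfd2 (95.0, 108 and 94.4 FPKM) and Phgdh (91.5, 118 and 89.7 FPKM) were near level, and Psat1, which also holds CACGCG, was highest in the OSK library (251, 239.9 and 472 FPKM, -0.91 for OSK + cMyc minus OSK). Shmt2 had 155, 254 and 130.3 FPKM and Mthfd1l 39.7, 53.1 and 30.1 FPKM, both highest in the cMyc library.

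Between the libraries labelled OSK + cMyc and OSK, 4 members were past the fold upward, Shmt1 (1.66), Gldc (1.43), Gcat (1.30) and Mthfd1 (1.03), and 1 downward, Tdh (-1.04), when 11.1% of genes were past it upward and 15.7% downward. Between OSK + cMyc and cMyc, Tdh (3.62) and Gldc (1.74) were past it upward and 0 members downward, when 8.82% and 3.98% of genes were. Both comparisons share the OSK + cMyc library. Of 15 Myc-responsive genes, 11 were past the fold upward and 0 downward against OSK, and 0 in either direction against cMyc. The same list had 0 past the fold in the library labelled siMyc day 7 against si-Scramble day 7 (median 0.09), 0 in that labelled siMyc day 3 against si-Scramble MEF (median 0.16), and 1 upward with the inhibitor (median 0.02), so it did not follow the siMyc labels. The Shmt2 to Shmt1 log2 ratio was 0.62, 0.71 and 2.03 in the 3 libraries, lower where cMyc is in the label. Among 41 measured pathway genes, 12 were past the fold upward and 8 downward against OSK, among them the folate carrier Slc19a1 (2.81) and Aldh1l2 (-2.31).

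**Figure D4:**
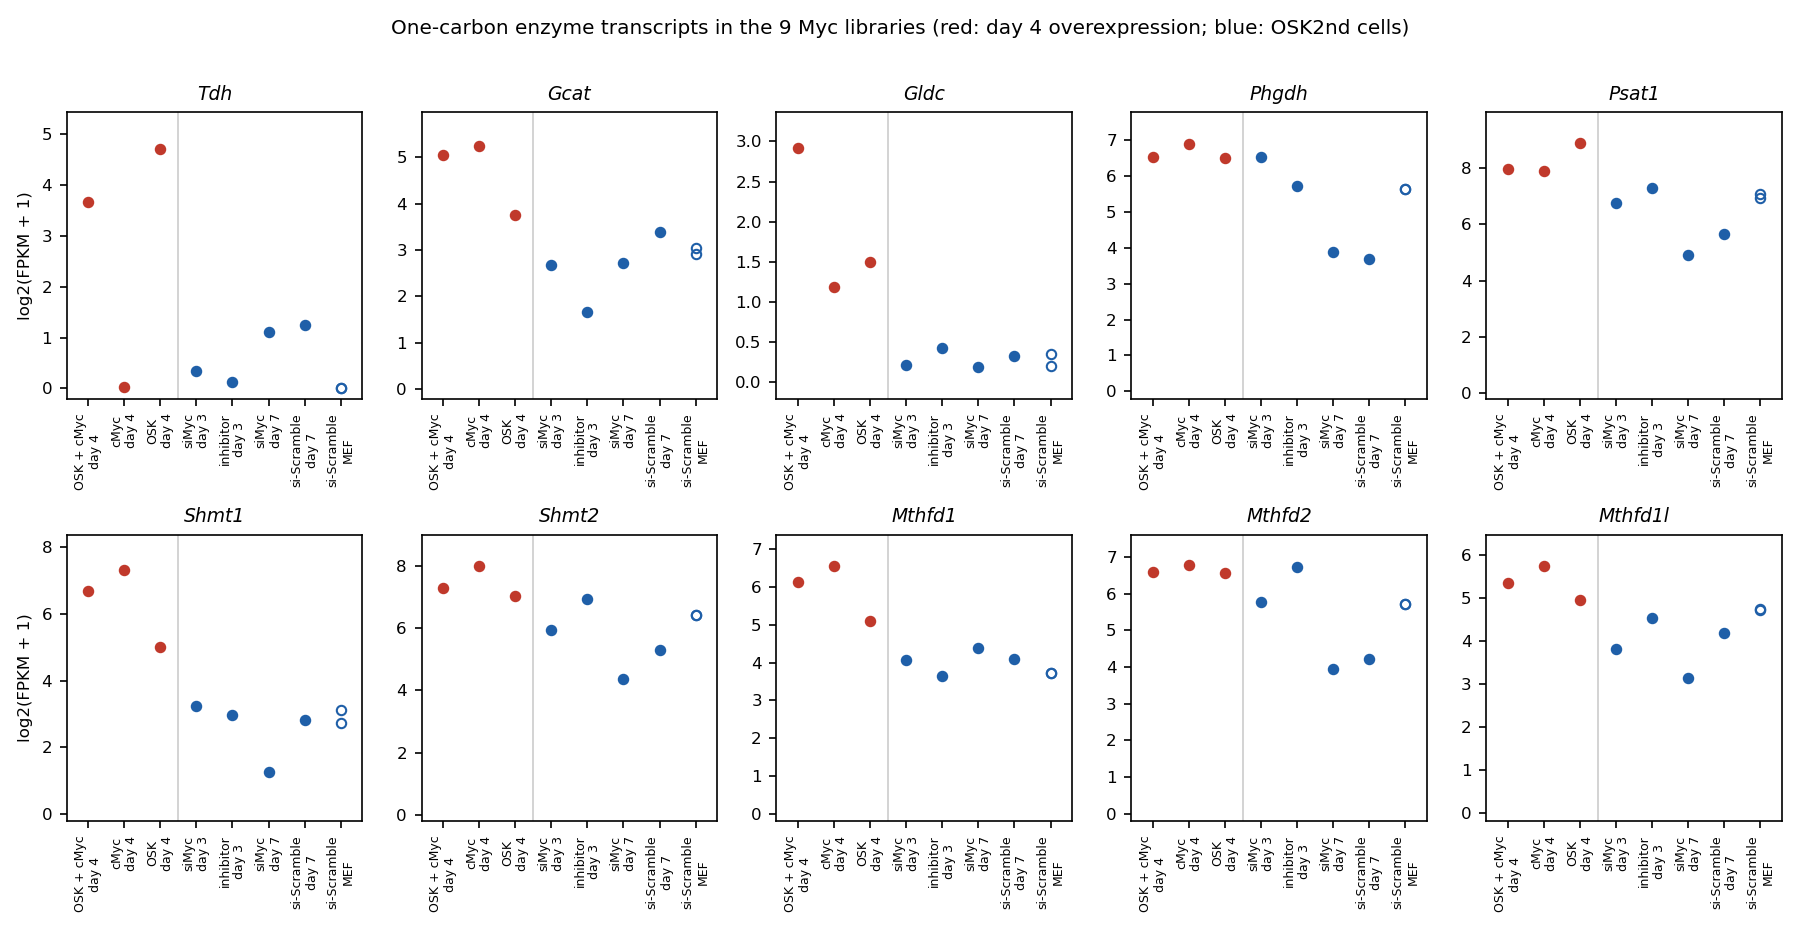
Level of each transcript as log2(FPKM + 1) (vertical axis) in the 9 Myc libraries by label (horizontal axis), with the day 4 overexpression libraries in red, OSK2nd cells in blue and the si-Scramble MEF replicates as open circles. Shmt1 is at 100.4 and 155 FPKM in the libraries with cMyc in the label and at 1.42 FPKM in the library labelled siMyc day 7.

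In OSK2nd cells on day 7 the library labelled siMyc was compared with si-Scramble. Shmt1 had 1.42 FPKM in the library labelled siMyc, against 6.06 FPKM in si-Scramble (-1.54), and Mthfd1l 7.76 FPKM, against 17.3 FPKM (-1.06). These 2 were past the fold downward and 0 upward, when 4.17% of genes were lower and 3.12% higher. Tdh had 1.15 FPKM, against 1.37 FPKM in si-Scramble, and Gldc 0.145 FPKM, against 0.252 FPKM. The largest member difference between the si-Scramble MEF replicates was that of Shmt1 (-0.38, of arbitrary sign). The day 7 differences of Tdh (-0.15), Gldc (-0.13), Mthfd2 (-0.29), Mthfd1 (0.29) and Phgdh (0.19) were smaller than this in size. Shmt2 (19.7 FPKM, against 38.0 FPKM), Psat1 (28.9 FPKM, against 49.5 FPKM) and Gcat (5.59 FPKM, against 9.40 FPKM) were lower by less than the fold. Mthfd1 (19.9 FPKM, against 16.1 FPKM) and Phgdh (13.8 FPKM, against 12 FPKM) were slightly higher. The members' median was -0.48, beside 0.007 over all genes. Proliferation markers had a median of -0.53 (summed 77.2 FPKM in the library labelled siMyc, against 100.4 FPKM in si-Scramble), and 4 of 10 fibroblast and 2 of 5 measured macrophage markers were past the fold downward. Their part in the members' values was not tested.

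No si-Scramble library of day 3 was analysed here, so on day 3 the day and the agent cannot be told apart. Against si-Scramble MEF, 0 members were past the fold in the library labelled siMyc day 3 (4.57% of genes were higher and 8.35% lower). The furthest were Mthfd1l (13.1 FPKM, against 26.1 and 25.3 FPKM in MEF) and Phgdh (91.5 FPKM, against 48.4 and 48.8 FPKM). With the inhibitor on day 3, Mthfd2 was past the fold upward (106 FPKM, against 52.0 and 51.4 FPKM in si-Scramble MEF, 1.02) and Gcat downward (2.15 FPKM, against 6.49 and 7.28 FPKM, -1.32), when 10.1% of genes were higher and 10.3% lower. In the same library 3 of 10 proliferation markers were past the fold downward and 4 of 13 amino acid response genes upward, Trib3 (1.61), Chac1 (1.8) and Sesn2 (1.16) among them.

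The si-Scramble course moved as well. On day 7 against si-Scramble MEF, 4 members were past the fold downward, when 5.43% of genes were: Phgdh (12 FPKM, against 48.4 and 48.8 FPKM, -1.94), Mthfd2 (17.8 FPKM, against 52.0 and 51.4 FPKM, -1.49), Psat1 (49.5 FPKM, against 136 and 121 FPKM, -1.36) and Shmt2 (38.0 FPKM, against 85.7 and 84.0 FPKM, -1.14). Tdh had 1.37 FPKM on day 7 and was listed at 0 in both MEF, so no fold is given (7.22% of genes were higher). Proliferation markers were lower in that library too, 6 of 10 past the fold with a median of -1.64 and a summed level of 100.4 FPKM, against 257 and 261 FPKM in MEF. Their part in the result was not tested.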

How the data were processed

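Poly(A) RNA-seq was measured in 43 mouse libraries. The authors deposited FPKM per gene in 5 tables, and per the submitters' processing notes the tools included Cufflinks 2.2.1, TopHat2 2.0.10 and CASAVA 1.8.2, with mm10 as the build. The annotation release was not named in the sources used here. Per the labels, libraries were made with a TruSeq RNA kit. The depth is unknown, so no interval for counting error is given, and all 37 mitochondrial genes are listed at 0, so a listed 0 can be a failed estimate. Entries sharing an identifier (22 per table) were summed, and 0 value columns lacked a matching sample.

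FPKM were tested as log2(FPKM + 1) with limma 3.58.1 in R 4.3.3, which understates the change of low genes. A gene was tested where 2 or more libraries reached an FPKM of 1. The eBayes step used trend and robust options, Benjamini-Hochberg adjustment ran over all genes tested, and the threshold was 0.05. Each class had a mean at each stage and the system was a block. The fit over all systems took in 24 libraries and 20305 genes with 10 residual degrees of freedom, and that of the depleted courses 20 libraries and 20198 genes with 9. No label states separate cultures for the libraries, so the p-values reflect only the spread among these samples, which may be technical. The procedure was checked on simulated data.

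Named genes are the members, the 5 largest called rises and falls of the pathway list (fewer are printed on days 2 and 4 and for iPSC minus WT day 8, and 1 pathway gene is not reported here by name), the Myc genes and the 5 genes most like Tdh. Other genes are named as label checks, as markers or for their neighbouring position, and Slc19a1, Aldh1l2, Trib3, Chac1 and Sesn2 in the Myc table were chosen after their values were seen. The members and lists were chosen with earlier results of these data known. Alternatives were a pseudocount of 0.1, no filter, quantile normalization, no block, only the compared stages, each system or replicate left out and, added after seeing the data, no Gatad2a-/- day 6 library. Pandas 2.3.3 and matplotlib 3.10.9 were used for descriptions and plots.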

Additional observations from a re-analysis of the deposited data

Results flagged for a closer look

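In a group of 4 systems, a library far from the other 3 was found in 2 of 20 groups of MEF or iPSC values examined, and chance marks about 1 in 20. Tdh at 134 FPKM in Gatad2a-/- iPSC lay far under the other iPSC lines (259.8 to 281 FPKM). Summed FPKM was 3311348 in Gatad2a-/- iPSC, with 73.11% in 10 genes, against 606314 to 917427 in the other iPSC libraries. The part of this scale in the low Tdh value was not tested. Shmt1 at 99.4 FPKM in WT-1 iPSC lay above the others (73.2 to 77.0 FPKM).

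A tested difference between depleted and WT systems was found for Gldc in the change to day 4 (3.37 on the log2 scale) and to day 8 (3.67), and for Mthfd1l in the change to day 8 (2.60). For Gldc every depleted library exceeded every WT library on both days, and the depleted libraries exceeded the WT libraries in Mthfd1l on day 8. The estimate of Tdh was above that of Gldc on both days (3.75 ± 1.67) but was not called.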

How the results depend on the processing

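Of 1158 member values recomputed under the alternatives, 1142 were not marked as turned in sign or as moved across the fold. These include 119 values that lost their call and 15 that gained one. In the Myc libraries a turn of sign was marked only where the main difference was at least 1. Smaller turns there were not counted. Depth is unknown and limits low values such as Gldc on the WT days. Each stage is 1 library per system, so calls lean on single systems. Without the block for system, 4 members were called between iPSC and WT day 8, 1 for the change to day 8 between classes, 2, 4 and 5 on days 1, 2 and 4 of the depleted courses, and 0 between days 8 and 4. With only the compared stages in the fit, 1 was called for the change to day 8 and 4 on day 2. Without the filter on low values, 0 were called between days 8 and 4. Under quantile normalization, 6, 6 and 7 were called on days 1, 2 and 4 of the depleted courses, against 8, 9 and 8. Shmt2 and Phgdh were missed there on days 1 and 2, Gldc on day 2 and Psat1 on day 4. A pseudocount of 0.1 put 1 member past the fold between the library labelled siMyc day 3 and si-Scramble MEF. In WT-1, a share of 0.25 was reached by day 4 in 4 members and a share of 0.75 in 0, against 2 at 0.5. The cause of these shifts was not tested.

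With each system left out in turn, the count ran from 7 to 10 for iPSC minus MEF, 0 to 2 for WT day 8 minus MEF, 2 to 10 for iPSC minus WT day 8, 0 to 3 and 1 to 4 for the class difference in the change to days 4 and 8, 0 to 1, 1 to 2, 1 to 2 and 1 to 3 on days 1, 2, 4 and 8 of the depleted courses, and was 0 for day 8 minus day 4. Only changes that had not been called turned sign. For iPSC minus MEF, Phgdh ran from -0.187 to 2.061. For WT day 8 minus MEF, Psat1 ran from -0.475 to 0.666, Gldc from -0.055 to 0.695 and Phgdh from -1.446 to 1.047. For the class difference, Psat1 ran from -0.142 to 1.713 on day 4 and from -0.2 to 1.404 on day 8, and Phgdh from -1.415 to 1.078 on day 8. For depleted days minus MEF, Mthfd2 ran from -0.060 to 1.979 on day 2 and from -0.698 to 1.068 on day 8 (-0.038 under quantile normalization), Psat1 from -0.104 to 1.5 on day 8 and Phgdh from -1.023 to 0.286 on day 8. For day 8 minus day 4, Mthfd2 ran from -1.291 to 0.013. Leaving out either si-Scramble MEF replicate changed none of the counts of the Myc table, and leaving out the Gatad2a-/- day 6 library changed no member's call. Libraries could not be paired by replicate number, because the labels number replicates only within the si-Scramble MEF group. The block for system, which joins the stages of 1 system, was part of the limma tests, and the counts without it are given above.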

Other observations

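The ES lines did not repeat the iPSC levels gene by gene. Tdh had 189.9 FPKM in Mbd3f/- ES, against 259.8 FPKM in Mbd3f/- iPSC, and 153 FPKM in WT-1 ES, against 281 FPKM in WT-1 iPSC, so it was lower in ES in both tables. Gldc had 35.2 FPKM in Mbd3f/- ES, against 15.7 FPKM in Mbd3f/- iPSC, and 43 FPKM in WT-1 ES, against 15.4 FPKM in WT-1 iPSC, so it was higher in both. Shmt1 differed in direction between the tables, with 121 FPKM in Mbd3f/- ES, against 77.0 FPKM in iPSC, and 62.1 FPKM in WT-1 ES, against 99.4 FPKM in iPSC. Phgdh also differed in direction, with 26.1 FPKM in Mbd3f/- ES, against 40.5 FPKM in iPSC, and 71.6 FPKM in WT-1 ES, against 35.2 FPKM in iPSC. Each is 1 library a line, and these differences were not tested.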
